A study of Homo sapiens with 4 samples.

Results

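The genes described here are 40 genes of ribosome biogenesis and of transcription by RNA polymerase I, chosen by symbol for their known roles, out of 17141 genes in the deposited table of estimated counts. The choice was made with earlier results of these data known. All 40 were in the table. They were compared between LNCaP-RRM2 and LNCaP-EV, with 2 RNA-seq libraries in each group. LNCaP is an established androgen-sensitive human prostate cancer line from a lymph node metastasis. LNCaP-RRM2 cells carried a lentiviral construct that expresses RRM2, the small subunit of ribonucleotide reductase, which supplies the building blocks of DNA. LNCaP-EV cells carried the empty vector, and both lines had been selected with puromycin. Whether the paired libraries of each line were grown as separate cultures is not stated, and the p-values therefore cover the spread between libraries only, which may be technical. Whether each line is 1 clone or a pool of cells is likewise not stated.

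Ribosome biogenesis starts in the nucleolus, where RNA polymerase I transcribes a long precursor of the 18S, 5.8S and 28S ribosomal RNAs. Small nucleolar ribonucleoproteins (snoRNPs) modify the precursor, and a small subunit processome and a series of large subunit factors fold and cut it while ribosomal proteins join. Growing and dividing cells use much of their energy on this pathway, and prostate cancer cells are known for enlarged nucleoli.

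Library totals ranged from 26601061 to 32601519 counts. Levels are given as CPM, counts relative to a fixed library size, on totals scaled by the trimmed mean of M-values (TMM), and a fold change compares LNCaP-RRM2 with LNCaP-EV. RRM2 itself measured 318 and 343 CPM in LNCaP-EV and 9291 and 8979 CPM in LNCaP-RRM2, a 27.6-fold difference in the direction of the labels. The prostate luminal and LNCaP markers KLK3, KLK2, TMPRSS2, FOLH1, HOXB13 and STEAP2 were each at 226 CPM or more in every library, and KLK3, the gene of prostate-specific antigen, measured 2975 and 2706 CPM in LNCaP-EV and 4976 and 5251 CPM in LNCaP-RRM2. Of the markers of other cells, 0 of 3 blood markers, 1 of 3 endothelial markers and 1 of 3 basal epithelial markers were in the table, with VWF at 6.62 to 11.3 CPM and KRT14 at 0.524 to 3.13 CPM. The fibroblast markers summed to 11.6 and 7.30 CPM in LNCaP-EV and to 34.2 and 25.3 CPM in LNCaP-RRM2, nearly all of it COL1A1, and the part of this in the results below was not tested. Within each group the libraries differed by more than counting noise, with a chi-square per degree of freedom of 23.4 in LNCaP-EV and 7.77 in LNCaP-RRM2.

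The ribosome biogenesis genes were lower in LNCaP-RRM2 as a group, by modest amounts. Their summed level was 7416 and 7559 CPM in LNCaP-EV and 5501 and 5701 CPM in LNCaP-RRM2. The means were 7488 ± 101 and 5601 ± 141 CPM (SD, n = 2 each), so that the sum was 1.34 times as high in LNCaP-EV, and the sums of the groups did not overlap. The most abundant genes weigh most in this sum. NCL alone averaged 1425 CPM in LNCaP-EV and 1034 CPM in LNCaP-RRM2, and NPM1 averaged 936 and 577 CPM. The median of the 40 was 1.26-fold lower. All 40 genes passed the filter on low counts, and the lowest count of any of them in any library was 443. The rule for a call was a fold change over 1.5 with an adjusted p under 0.05. By edgeR's quasi-likelihood test with Benjamini-Hochberg adjustment over 15162 genes, 6 of the 40 (15.0%) were called lower, beside 7.96% of all genes tested. At the same adjusted p with no fold limit, 25 of 40 (62.5%) fell, beside 24.4% of all genes tested, and 15 did not pass. None of the 40 was called higher in this test, beside 12.5% of all genes tested, and none was higher with no fold limit, beside 17.8%, or at an unadjusted p below 0.05. limma-voom likewise called 0 of them higher, as did DESeq2.

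The log2 fold change was negative for 36 of the 40 (90.0%), beside 51.8% of all genes tested. It ran from -0.75 to 0.32, with a median of -0.33 beside -0.03 over all genes tested. In 31 of the 40 (77.5%) both LNCaP-RRM2 libraries lay below both LNCaP-EV libraries, beside 40.9% of all genes tested. In 0 of the 40 did both lie above, beside 34.5% of all genes. The groups overlapped in 9 of the 40, beside 3740 of the 15162 genes tested. The median change was therefore well inside the 1.5-fold limit (0.58 on the log2 scale), and 19 of the 25 genes that fell did so by less than that limit. The counts were smaller when a LNCaP-RRM2 library was left out. Without replicate 1 of LNCaP-RRM2, 1 gene was called lower (DKC1, edgeR adjusted p = 0.0455) and only 1 fell with no fold limit, beside 2.05% of all genes by either rule. Without replicate 2 of LNCaP-RRM2, 4 genes were called lower (DKC1, BRIX1, NPM1 and DDX21) and 4 fell with no fold limit, beside 3.54% of all genes. The median log2 fold change stayed at -0.33 and -0.34 in these fits. There the lone library is assumed to vary like the LNCaP-EV pair, whose chi-square per degree of freedom was the larger of the groups. Without LNCaP-EV replicate 1, 8 genes were called lower, beside 10.1% of all genes, and 2 higher (BOP1 and MYBBP1A), beside 18.4%. Without LNCaP-EV replicate 2, 3 were called lower (FBL, DKC1 and NPM1), beside 5.63% of all genes. CPM are shares of a library, so these levels are relative, and in bulk RNA fewer cells expressing a gene and less RNA per cell cannot be told apart.

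**Figure D1:**
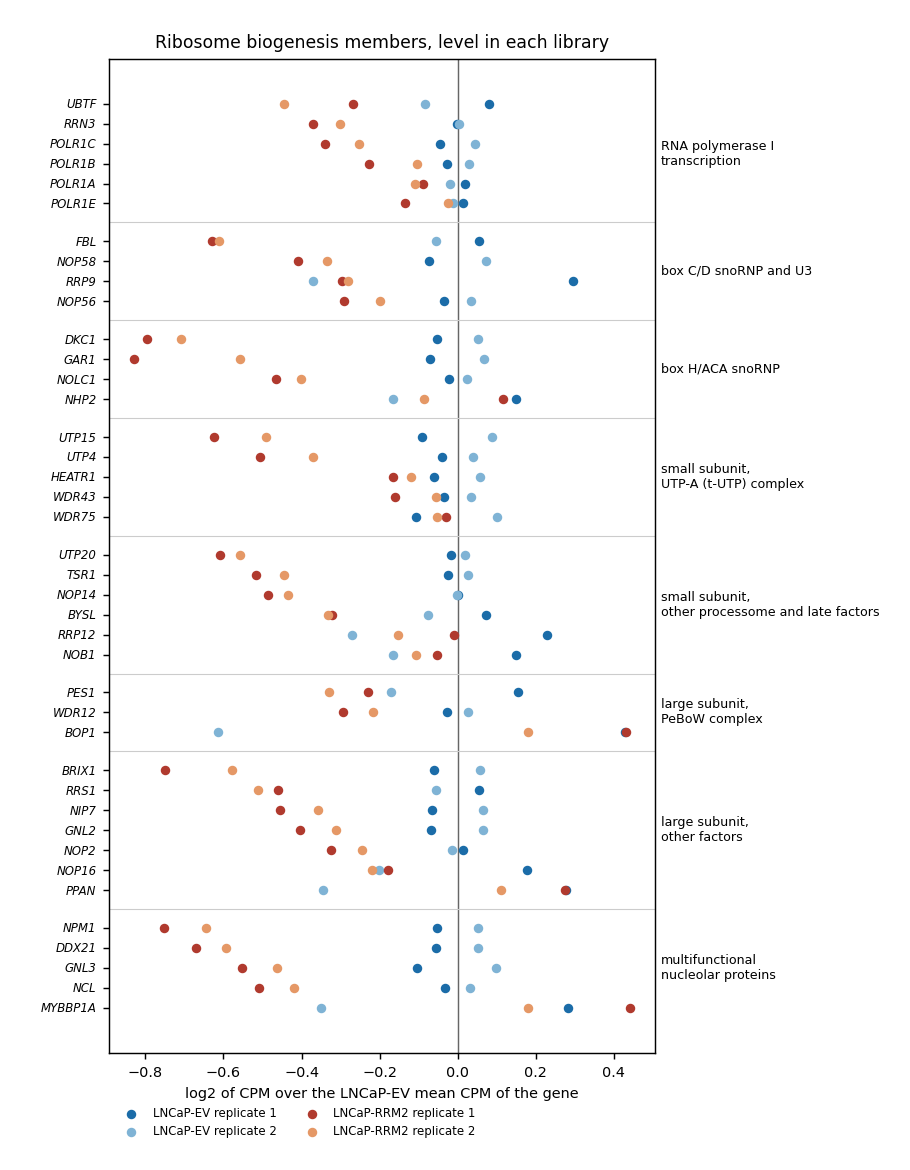
Level of each of the 40 genes in each library, as log2 of its CPM over the gene's mean CPM in the 2 LNCaP-EV libraries, with genes ordered by role; each point is 1 library. The LNCaP-RRM2 points lie to the left of both LNCaP-EV points in 31 genes, and the LNCaP-EV points are widest apart in BOP1, RRP9, MYBBP1A and PPAN.

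Genes of cell division were lower in the same libraries. Of 10 proliferation genes listed for context, 9 were called lower, beside 7.96% of all genes tested. The median of their log2 fold changes was -0.83, beside -0.03 over all genes tested. Their summed level was 2090 and 2109 CPM in LNCaP-EV and 1156 and 1167 CPM in LNCaP-RRM2. The list includes MKI67, the Ki-67 antigen, and CDK1, the kinase that drives entry into mitosis. The part of this difference in the levels of the ribosome biogenesis genes was not tested.

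Of the 6 RNA polymerase I genes, none was called and 3 fell with no fold limit, beside 24.4% of all genes tested. For the role groups below, too, 24.4% of all genes tested fell and 7.96% were called lower. The median log2 fold change of the 6 was -0.23. In all 6 both LNCaP-RRM2 libraries lay below both LNCaP-EV libraries, beside 40.9% of all genes tested. RRN3 (TIF-IA in mouse), the factor that makes the polymerase competent to start and a target of growth signalling, measured 144 and 145 CPM in LNCaP-EV and 112 and 117 CPM in LNCaP-RRM2. It fell by 0.33 on the log2 scale (SE 0.06, edgeR adjusted p = 0.0124), and the libraries of each group lay close together. Some of its reads can be shared with copies such as the pseudogene RRN3P3, so its value is uncertain to that extent. UBTF, which binds along the active ribosomal DNA, measured 116 and 104 CPM in LNCaP-EV and 91.3 and 80.8 CPM in LNCaP-RRM2 and fell by 0.35 (SE 0.10, adjusted p = 0.0342). The levels of the catalytic subunits were closer between the groups. POLR1A, the largest subunit, measured 141 and 137 CPM in LNCaP-EV and 131 and 129 CPM in LNCaP-RRM2, with a log2 fold change of -0.10 (SE 0.06, adjusted p = 0.238). POLR1B, the other large subunit, measured 81.7 and 85.0 CPM in LNCaP-EV and 71.2 and 77.5 CPM in LNCaP-RRM2, with a log2 fold change of -0.16 (SE 0.08, adjusted p = 0.144). Neither passed the test, although both LNCaP-RRM2 libraries were below both LNCaP-EV libraries in each gene. POLR1E, a subunit that helps the polymerase to initiate, had the smallest change, with 53.6 and 52.7 CPM in LNCaP-EV and 48.4 and 52.2 CPM in LNCaP-RRM2 and a log2 fold change of -0.08 (SE 0.08, adjusted p = 0.467). POLR1C, which RNA polymerases I and III share, fell by 0.30 (adjusted p = 0.0489).

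The box C/D snoRNPs guide 2′-O-methylation of ribosomal RNA, and 3 of the 4 genes of this group fell. FBL, fibrillarin, the methyltransferase itself, measured 159 and 147 CPM in LNCaP-EV and 98.8 and 100.1 CPM in LNCaP-RRM2 (chr19:39834453-39846415). It was called lower, 1.54-fold, with a log2 fold change of -0.62 (SE 0.07, adjusted p = 0.00372). Its call sat close to the fold limit: under 6 other scalings, filters or tests its log2 fold change was -0.58 to -0.53 and it was not called. These 6 left out no library. With each library left out in turn, its log2 fold change ran from -0.637 to -0.580, the last just under the fold limit of 0.585. The core proteins NOP56 and NOP58 fell by less. NOP56 measured 319.6 and 336 CPM in LNCaP-EV and 268 and 285 CPM in LNCaP-RRM2, with a log2 fold change of -0.24 (SE 0.07, adjusted p = 0.0350), and NOP58 fell by 0.37 (adjusted p = 0.0153). RRP9, a protein of the U3 snoRNP that starts processing of the precursor, measured 46.1 and 29.1 CPM in LNCaP-EV and 30.6 and 31.0 CPM in LNCaP-RRM2. Its LNCaP-EV replicate 1 was high and its other 3 libraries lay together, so the groups overlapped and the gene did not pass (log2 fold change -0.29, SE 0.22, adjusted p = 0.321).

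The box H/ACA snoRNPs, which convert uridines to pseudouridine, held the gene with the most negative change of the 40. DKC1, dyskerin, the pseudouridine synthase, which is also part of telomerase, measured 223 and 239.9 CPM in LNCaP-EV and 133 and 142 CPM in LNCaP-RRM2 (chrX:154762742-154777690). It was 1.68-fold lower (log2 fold change -0.75, SE 0.07, adjusted p = 0.00293), the groups were well apart, and it was called lower under each of the 15 alternative settings. GAR1, a protein of the same particle, measured 27.6 and 30.4 CPM in LNCaP-EV and 16.3 and 19.7 CPM in LNCaP-RRM2 (chr4:109815510-109824738) and was 1.61-fold lower (log2 fold change -0.69, SE 0.13, adjusted p = 0.0125). NHP2, the third protein of the particle described here, did not pass the test. It measured 91.6 and 73.8 CPM in LNCaP-EV and 89.7 and 77.8 CPM in LNCaP-RRM2, with overlapping groups and a log2 fold change of 0.02 (SE 0.13, adjusted p = 0.923). NOLC1, which accompanies snoRNPs to the nucleolus, fell by 0.43 (adjusted p = 0.00632). GAR1 was not called without LNCaP-EV replicate 2 (-0.57), LNCaP-RRM2 replicate 1 (-0.56) or LNCaP-RRM2 replicate 2 (-0.84). The difference between NHP2 and its partners was not tested.

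Among the small subunit factors, none of 11 was called and 6 fell. The UTP-A complex, which is needed for transcription of the precursor as well as for its processing, had 2 of 5 genes lower with no fold limit and a median log2 fold change of -0.14. UTP15 had the largest change of the complex, with 56.8 and 64.2 CPM in LNCaP-EV and 39.2 and 43.1 CPM in LNCaP-RRM2 and a log2 fold change of -0.56 (SE 0.10, adjusted p = 0.0110), and UTP4 fell by 0.44 (adjusted p = 0.0128). The 3 other genes did not pass. WDR75 had the smallest change, with 70.1 and 81.1 CPM in LNCaP-EV and 74.1 and 72.9 CPM in LNCaP-RRM2, overlapping groups and a log2 fold change of -0.04 (SE 0.09, adjusted p = 0.747). HEATR1 and WDR43 had log2 fold changes of -0.14 and -0.11 (adjusted p = 0.162 and 0.271), with groups that did not overlap.

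Of the 6 other small subunit genes, 4 fell and the median of their log2 fold changes was -0.39. UTP20, a large scaffold of the processome, measured 79.8 and 81.8 CPM in LNCaP-EV and 53.0 and 54.9 CPM in LNCaP-RRM2. It fell by 0.58 (SE 0.07, adjusted p = 0.00454) and lay just inside the fold limit of 1.5, so it was not called. TSR1, which blocks early binding of translation factors to the immature subunit, fell by 0.48 (adjusted p = 0.00526), the processome protein NOP14 fell by 0.46 (adjusted p = 0.00563) and BYSL, bystin, fell by 0.33 (adjusted p = 0.0463). Reads of NOP14 and of the antisense gene NOP14-AS1 cannot be told apart where they overlap, since the use of strand in counting is not given. NOB1 and RRP12 did not pass the test. NOB1, the endonuclease that makes the final cut of 18S ribosomal RNA, measured 75.3 and 60.6 CPM in LNCaP-EV and 65.5 and 63.1 CPM in LNCaP-RRM2, with a log2 fold change of -0.08 (SE 0.12, adjusted p = 0.612). RRP12, a factor for export of the subunits, had a log2 fold change of -0.08 (adjusted p = 0.723), and the groups overlapped in both genes.

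The PeBoW complex matures the large subunit, and 1 of its 3 genes, WDR12, fell, by 0.26 (adjusted p = 0.0428). PES1, pescadillo, measured 151 and 120.3 CPM in LNCaP-EV and 116 and 108 CPM in LNCaP-RRM2, with a log2 fold change of -0.28 (SE 0.12, adjusted p = 0.111), and its groups did not overlap. BOP1 measured 57.7 and 28.0 CPM in LNCaP-EV and 57.8 and 48.5 CPM in LNCaP-RRM2, with a log2 fold change of 0.31 (SE 0.33, adjusted p = 0.477). LNCaP-EV replicate 2 was the one low library of BOP1, and without LNCaP-EV replicate 1 the gene was called higher, with a log2 fold change of 0.91.

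Of the 7 other large subunit genes, 5 fell and their median log2 fold change was -0.36. BRIX1 measured 75.5 and 81.9 CPM in LNCaP-EV and 46.8 and 52.7 CPM in LNCaP-RRM2 (chr5:34915715-34925683), and was 1.58-fold lower (log2 fold change -0.66, SE 0.09, adjusted p = 0.00614). It came under the fold limit with upper-quartile scaling (-0.58), with the stricter filter (-0.57) and without LNCaP-EV replicate 2 (-0.55). RRS1, which works with the 5S particle, fell by 0.49 (adjusted p = 0.00982), NIP7 fell by 0.41 (adjusted p = 0.0171), the GTPase GNL2 fell by 0.36 (adjusted p = 0.0167) and NOP2, a methyltransferase of 28S ribosomal RNA, fell by 0.28 (adjusted p = 0.0220). NOP16 and PPAN did not pass. NOP16 had a log2 fold change of -0.20 (adjusted p = 0.282). PPAN measured 36.6 and 23.8 CPM in LNCaP-EV and 36.5 and 32.6 CPM in LNCaP-RRM2, with overlapping groups, a low LNCaP-EV replicate 2 and a log2 fold change of 0.19 (SE 0.21, adjusted p = 0.490). Reads of PPAN can be shared with the PPAN-P2RY11 readthrough gene and those of RRS1 with its antisense gene RRS1-AS1.

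The most abundant nucleolar proteins were among the genes that fell, 4 of 5 in this group. NPM1, nucleophosmin, a chaperone of the nucleolus, measured 902 and 969.8 CPM in LNCaP-EV and 555 and 599 CPM in LNCaP-RRM2 (chr5:171387116-171410885). It was 1.62-fold lower (log2 fold change -0.70, SE 0.08, adjusted p = 0.00354), and it has many processed pseudogenes that can share its reads. NCL, nucleolin, which binds the precursor, measured 1394 and 1456 CPM in LNCaP-EV and 1002 and 1065 CPM in LNCaP-RRM2 and fell by 0.46 (SE 0.07, adjusted p = 0.00721), under the fold limit. These genes had wide gaps between the groups. DDX21, an RNA helicase of the nucleolus, measured 653 and 704 CPM in LNCaP-EV and 426 and 449 CPM in LNCaP-RRM2 (chr10:68956123-68985070) and was 1.55-fold lower (log2 fold change -0.63, SE 0.07, adjusted p = 0.00376). With 4 other scalings or filters DDX21 came under the fold limit, at -0.57 to -0.54. GNL3, nucleostemin, fell by 0.51 (adjusted p = 0.00965). MYBBP1A, a nucleolar protein that binds other transcription regulators, had the higher mean in LNCaP-RRM2, with 109.9 and 71.0 CPM in LNCaP-EV and 123 and 102 CPM in LNCaP-RRM2. It had the most positive log2 fold change of the 40, 0.32 (SE 0.21, adjusted p = 0.278), its groups overlapped, with LNCaP-EV replicate 1 above LNCaP-RRM2 replicate 2 and LNCaP-EV replicate 2 the lowest library, and without LNCaP-EV replicate 1 it was called higher at 0.65. Per kilobase of transcript, NPM1 had the highest level of the 40 in LNCaP-EV, 532 CPM per kb, and NCL the next, 353 CPM per kb, beside a median of 35.3 CPM per kb.

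**Figure D2:**
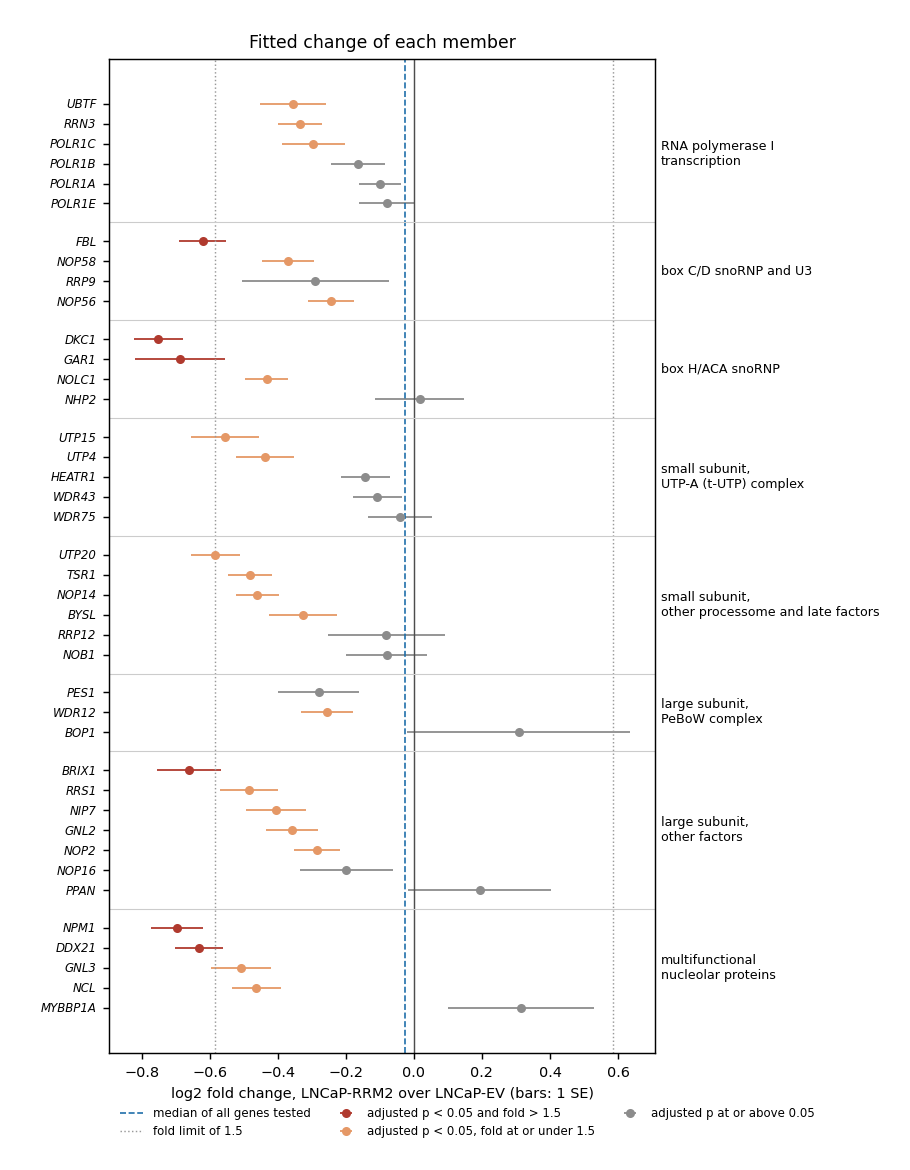
Fitted log2 fold change of LNCaP-RRM2 over LNCaP-EV for each of the 40 genes, ordered by role, with bars of 1 SE; dotted lines mark the 1.5-fold limit and the dashed line the median of all genes tested. The 6 genes past the limit and the test lie at the left, DKC1 at -0.75 the farthest, and BOP1 has the widest bar.

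The agreement between the LNCaP-EV libraries varied with the GC content of the transcript. Of the 9 genes whose groups overlapped, 8 had a GC content of 54.1% to 65.2%, WDR75 being the other, beside a median of 47.2% among the 31 that did not overlap. Across the 40 genes, which share the same 4 libraries, the log2 ratio between the LNCaP-EV libraries (replicate 1 over replicate 2) had a Pearson's r of 0.83 and a Spearman's rho of 0.83 with GC content. The log2 fold change had an r of 0.49 and a rho of 0.40 with GC content, beside 0.33 and 0.37 over the 14545 genes tested that have a GC content. The 20 genes above the median GC content held 1 gene called lower and 9 that fell, with a median of -0.26 for the log2 fold change, and the 20 at or below it held 5 and 16, with a median of -0.43. Once the trend of each library with GC content was removed, the count of genes called lower was 8 of 40, the count that fell was 33, none was higher by either rule (10.9% and 21.3% of all genes were) and the median was -0.43, beside -0.12 over all genes. In that fit 10.8% of all genes were called lower and 38.1% were lower with no fold limit. FBL, DKC1, GAR1 and NPM1 kept their calls, BRIX1 (-0.58) and DDX21 (-0.52) came under the fold limit, and RRP9 (-0.72), RRS1 (-0.73), BYSL (-0.61) and PES1 (-0.61) were called. BOP1, PPAN, NHP2 and MYBBP1A turned negative, and WDR75 alone was positive, at 0.07. MYBBP1A, at -0.13, lay near the median of all genes in that fit, -0.12.

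**Figure D3:**
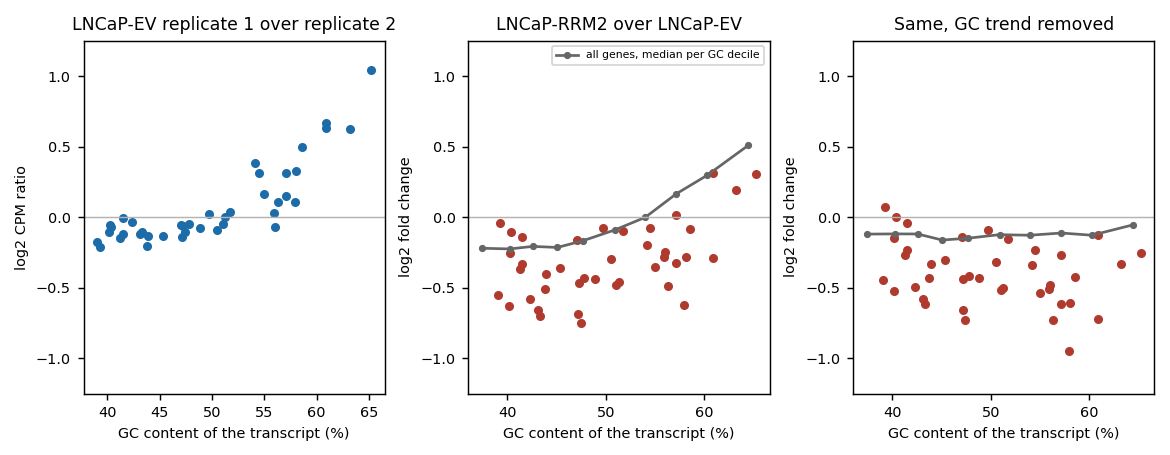
Log2 values of the 40 genes against the GC content (%) of the transcript: the ratio of LNCaP-EV replicate 1 over replicate 2 at left, the log2 fold change in the middle and the log2 fold change with the GC trend of each library removed at right; grey points are medians of all genes per decile of GC content. The left panel rises with GC content (r = 0.83). At right 39 of the 40 genes are below 0, and the median of all genes tested is also below 0, at -0.12.

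The genes were spread over 16 chromosomes. RefSeq promoters on GRCh38.p14, from 250 bases before to 50 after the start, were at hand for 34 of the 40, and were searched on both strands for 4 short motifs. CACGTG, the E-box bound by MYC and its relatives, was in 11 of 34 promoters (32.4%), beside 26.8% of 112 promoters of other ribosome biogenesis genes and 7.43% of 27305 promoters in the table. CCGGAAG, the core letters of sites for ETS factors, was in 12 of 34 (35.3%), beside 47.3% of the promoters of other ribosome biogenesis genes and 10.7% of all. The palindrome of the NRF1 motif, whose letters are the capitals in the DKC1 window, was in 3 of 34 (8.82%), beside 1.36% of all. The palindrome bound by BANP was in 1 (NOP14, 2.94%), beside 0.469% of all. Among the promoters of other ribosome biogenesis genes these palindromes were in 5.36% and 0.893%. Shares were higher among the 15843 promoters of protein-coding genes than among all promoters. There 8.88% held CACGTG, 14.2% CCGGAAG, 1.75% the NRF1 palindrome and 0.669% the BANP palindrome. CACGTG and these palindromes read the same on both strands, and none of the motifs holds another. A match says only that the letters are there. All 11 E-box matches began between 20 bases before and 40 after the start, a window chosen after the positions were seen, as did 428 of the 2030 promoters with a match in the whole table (21.1%). The 11 windows are shown because they share this letter run and position, with 9 bases on either side on the gene's strand and the E-box in capitals.
BYSL (chr6:41921518-41921541, plus strand): ttcagtcccCACGTGcgatccttc
FBL (chr19:39846359-39846382, minus strand): gctcttttcCACGTGcgaaagccc
GNL2 (chr1:37595920-37595943, minus strand): cgtcgtgcaCACGTGgtccggcgt
MYBBP1A (chr17:4555343-4555366, minus strand): gccggagcaCACGTGtttcgtgtt
NOP14 (chr4:2963377-2963400, minus strand): gcggcccggCACGTGtcttagggt
NOP2 (chr12:6568242-6568265, minus strand): tccggattgCACGTGgagggccgc
PES1 (chr22:30591883-30591906, minus strand): ttggcagggCACGTGcgggaggaa
RRP9 (chr3:51941895-51941918, minus strand): ttcagctgcCACGTGagttctgcg
UTP20 (chr12:101280086-101280109, plus strand): ttttccgtcCACGTGacccactca
UTP4 (chr16:69132624-69132647, plus strand): gcgcgcgcgCACGTGgggccgggg
WDR43 (chr2:28894661-28894684, plus strand): acggacgaaCACGTGgctgcagcg

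Among the genes with an E-box the median of the log2 fold change was -0.33 and 7 of 11 fell, and the 23 without one among these promoters had a median of -0.33 and 15 of 23 fell. Of the 6 genes called lower, FBL alone held an E-box, while BRIX1, DDX21, FBL and GAR1 held CCGGAAG and DKC1 held the NRF1 palindrome. These windows are shown because they belong to the genes called lower, with the motif in capitals. The letters in GAR1 are the reverse complement of the motif.
BRIX1 (chr5:34915597-34915621, plus strand): ccaccgagaCCGGAAGgaggcggca
DDX21 (chr10:68956101-68956125, plus strand): ctgcttcccCCGGAAGtgccttgct
FBL (chr19:39846557-39846581, minus strand): aagaggaaaCCGGAAGcgagtttag
GAR1 (chr4:109815473-109815497, plus strand): gccgcagcaCTTCCGGgacgtcgtg
DKC1 (chrX:154762710-154762737, plus strand): aggctcgaaGCGCATGCGCggtctcgcc

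Another 128 genes of the pathway, listed by role, were all in the table and all tested. Of these, 11 (8.59%) were called lower, a share close to the 7.96% of all genes tested, and 1 (0.781%) was called higher, beside 12.5%. With no fold limit 72 (56.3%) fell, beside 24.4% of all genes, and 3 (2.34%) rose, beside 17.8%, and the median log2 fold change was -0.35. By role, 8 of 11 snoRNP genes fell, as did 28 of 44 small subunit genes, 32 of 58 large subunit genes and 4 of 15 RNA polymerase I genes. RSL24D1, a large subunit factor, measured 131 and 139 CPM in LNCaP-EV and 75.9 and 79.7 CPM in LNCaP-RRM2, with a log2 fold change of -0.79 (SE 0.07, adjusted p = 0.00287). MAK16, a large subunit factor known from yeast, had a log2 fold change of -0.78 (adjusted p = 0.00287). EMG1, a methyltransferase of 18S ribosomal RNA, had a log2 fold change of -0.76 (adjusted p = 0.00346), and LTV1, a late factor of the small subunit, one of -0.65 (adjusted p = 0.00450). RPAP3, part of the chaperone that assembles snoRNPs, had a log2 fold change of -0.65 (adjusted p = 0.00407). The one gene called higher was TAF1C, a subunit of the selectivity factor that recruits RNA polymerase I to the promoter. It measured 43.7 and 30.9 CPM in LNCaP-EV and 66.6 and 51.5 CPM in LNCaP-RRM2, with a log2 fold change of 0.66 (SE 0.20, adjusted p = 0.0468), and it was not called once the GC trend was removed.

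**Figure D4:**
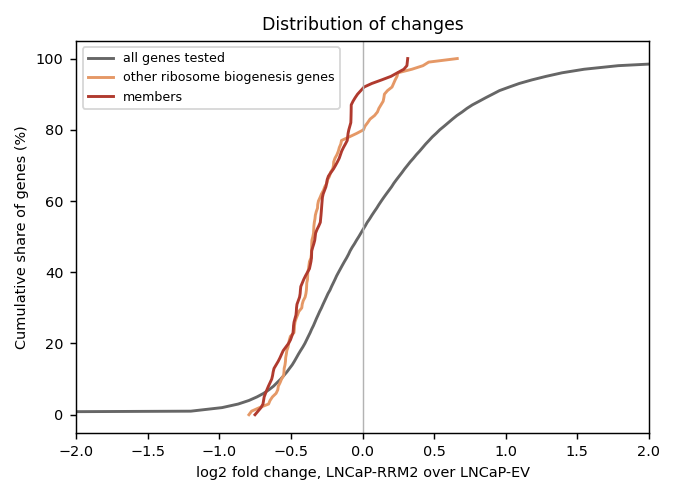
Cumulative share of genes (%) against the log2 fold change of LNCaP-RRM2 over LNCaP-EV, for the 40 genes, the 128 other ribosome biogenesis genes and all 15162 genes tested; the horizontal axis leaves out the far tails of all genes. Both ribosome biogenesis curves lie to the left of that of all genes at their medians (-0.33 and -0.35 beside -0.03).

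Counts on the rows of ribosomal RNA were not lower in LNCaP-RRM2. For each family described here, both libraries of LNCaP-RRM2 were above both of LNCaP-EV. These rows held a small share of each library, so they do not measure how much ribosomal RNA the cells contained. Rows of ribosomal RNA and of U3 snoRNA were picked after their values were seen, their copies are nearly identical and share reads, and whether the libraries were made by poly(A) selection or by depletion of ribosomal RNA is not given. The part of the library preparation in these levels was not tested. Rows of ribosomal RNA, the mitochondrial ones included, took 4.74% and 4.93% of the counts of the LNCaP-EV libraries. In LNCaP-RRM2 these rows took 6.58% and 5.94%. The 4 rows of the 45S precursor (RNA45SN), 3 of them distinct, summed to 128 and 93.3 CPM in LNCaP-EV and 252 and 175 CPM in LNCaP-RRM2. Of these, 3 were called higher, 2 of which hold identical values, beside 12.5% of all genes tested. Over the 4, log2 fold changes were 0.81 to 1.04, with edgeR adjusted p of 0.0110 to 0.115. Without LNCaP-RRM2 replicate 1 none of the 4 was called (adjusted p of 0.0791 to 0.621). The 18S rows measured 4751 and 4525 CPM in LNCaP-EV and 8649.7 and 5641 CPM in LNCaP-RRM2 (adjusted p = 0.0518), and the 28S rows 17904 and 15990 CPM against 21920 and 18328 CPM (adjusted p of 0.0982 to 0.350). SNORD3A, the U3 snoRNA, measured 5.12 and 4.60 CPM in LNCaP-EV and 22.2 and 7.74 CPM in LNCaP-RRM2 (log2 fold change 1.62, adjusted p = 0.0458). Apart from the mitochondrial rows, LNCaP-RRM2 replicate 1 was the highest library in each of these RNAs, whereas the sum of the 40 genes was lower in both LNCaP-RRM2 libraries.

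**Figure D5:**
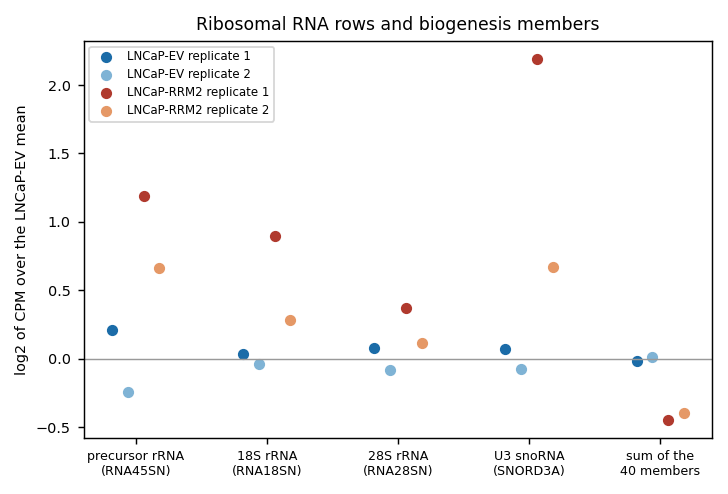
Level of ribosomal RNA rows, U3 snoRNA and the sum of the 40 genes in each library, as log2 of CPM over the mean of the 2 LNCaP-EV libraries; each point is 1 library. LNCaP-RRM2 replicate 1 is the highest point of each RNA, and both LNCaP-RRM2 points of the sum of the 40 genes are below 0.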

How the data were processed

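Total RNA was sequenced as paired reads of 50 bases on an Illumina instrument. Per the labels, the authors processed the reads in Partek Flow and deposited 1 table of estimated counts per gene, from which genes with a total below 10 over the 4 libraries were absent. The aligner, genome build, annotation, version, strand use and RNA selection were not given in the sources used here. Between 56.1% and 58.0% of the values were whole numbers, and the expected counts were rounded for testing. Positions of all 40 genes overlapped RefSeq positions on GRCh38. No value column lacked a sample, and 23 date-like symbols were left unnamed. Totals were 26601061 to 32601519 counts.

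Genes were tested in edgeR 4.0.16 (R 4.3.3) with TMM scaling, filterByExpr, a quasi-likelihood F-test on 2 against 2 libraries and Benjamini-Hochberg adjustment over 15162 genes. SE is the log2 fold change divided by the square root of F. Calls used an adjusted p below 0.05 and a fold above 1.5, the thresholds of the study's methods. GC content came from GENCODE transcripts (95.1% of genes), and its trend was fitted per library with a natural spline (5 degrees of freedom). Alternatives were DESeq2 1.42.0, limma 3.58.1 (voom), other scalings and filters, a replicate block and leaving out each library. The methods were tested on simulated data with the same dispersion for every gene and no GC trend. Such data cannot show how the methods handle the GC trend of these libraries.

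Values per library were given for RRN3, POLR1A, POLR1B, FBL, NCL, NPM1 and DKC1, for the genes called, and for those with the highest and lowest change in each role group. Of the other pathway genes, up to 2 called genes per list and direction were named. The members, gene lists and tests were chosen with earlier results of these data known. Ribosomal RNA rows and the E-box window were chosen after values were seen. One listed marker is not reported here. Sequences were copied from RefSeq (GRCh38.p14).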

Additional observations from a re-analysis of the deposited data

How the results depend on the processing

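With 2 libraries a group the calls rest on the spread of a single pair, while depth limits them little, the lowest count of any of the 40 being 443. Over the 15 alternatives the median log2 fold change of the 40 genes ran from -0.43 to -0.24. Upper-quartile scaling and the stricter filter each called 3 of the 40 lower, beside 5.45% and 5.42% of all genes. With each library left out in turn, the median log2 fold change of the 40 ran from -0.34 to -0.31. The numbers called lower and called higher varied with the library left out. Whether same-numbered libraries share a batch is not stated. Their deviations from the group means correlated at 0.30 over all genes and 0.81 over the 40. With the replicate block 6 were called lower, beside 8.28% of all genes, and with no fold limit 26 were lower and 1 was higher, beside 29.3% and 25.0%. Of the 128 other pathway genes, 7 were called lower with DESeq2 size factors and by the DESeq2 Wald test, and 4 with total counts, with upper-quartile scaling, under the stricter filter and with RRM2 and ribosomal RNA left out of the totals, with medians of -0.30, -0.30, -0.28, -0.27, -0.25 and -0.27 in that order. In those fits 6.56%, 5.65%, 5.79%, 5.45%, 5.42% and 5.53% of all genes were called lower, so that the calls among the 128 were no more frequent than among all genes. None was called higher with the GC trend removed, with or without the replicate block (0 of 128 in each). Leaving out each library gave 3 to 21 lower, 0 to 8 higher and medians of -0.37 to -0.28.

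Among single genes, 27 values lost and 13 gained a call, and 28 turned direction, each in a gene that was not called. POLR1E, RRP12 and NOB1 turned positive with upper-quartile scaling (3.81e-05, 0.00073 and 0.0011) and under the stricter filter (0.016, 0.017 and 0.017). WDR75 turned positive with total counts (0.024), upper-quartile scaling (0.037), the stricter filter (0.053) and with RRM2 and ribosomal RNA left out of the totals (0.033), and with the GC trend removed (0.069, or 0.070 with the replicate block). With the GC trend removed, without and with the replicate block, BOP1 was at -0.25 in both, NHP2 at -0.26 in both, PPAN at -0.33 and -0.34 and MYBBP1A at -0.13 and -0.12. With each library left out in turn, RRP9 ran from -0.53 to 0.068, NHP2 ran from -0.094 to 0.17, WDR75 ran from -0.16 to 0.11, RRP12 ran from -0.26 to 0.17, NOB1 ran from -0.18 to 0.071, BOP1 ran from -0.071 to 0.91 and PPAN ran from -0.036 to 0.52. The cause of these turns was not tested.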

Other observations

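UTP4, NIP7 and NOB1 lie within 622 kb of each other on chromosome 16, and their log2 fold changes were -0.44, -0.41 and -0.08. Of the 40 genes, 7 lie on chromosome 2, 5 on chromosome 5 and 4 on chromosome 16. Across the 40 genes, which share the same libraries, the log2 fold change had a Pearson's r of -0.40 and a Spearman's rho of -0.36 with the log2 mean level in LNCaP-EV. As a share of all counts the 40 genes took 0.719% and 0.745% in the LNCaP-EV libraries, and 0.561% and 0.584% in those of LNCaP-RRM2. Summed, the 5.8S rows were lower in level than the summed 45S, 18S or 28S rows, at 33.9 and 28.3 CPM in LNCaP-EV and 139.6 and 34.9 CPM in LNCaP-RRM2.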
